A study of Sus scrofa with 20 samples.

Results

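A set of 9 genes of Wnt signalling was followed in the uterus of sows 6 days after the onset of estrus, in animals inseminated with different parts of the boar ejaculate and in animals left uninseminated. They comprised the ligands WNT4, WNT5A, WNT7A and WNT11, the receptor FZD1, the transcription factor LEF1, the feedback target AXIN2, and the secreted inhibitors SFRP1 and SFRP4. These 9 genes were taken by symbol from 30345 gene rows of the count table, each symbol had 1 row, and all 9 were among the 17745 genes with enough counts to be tested. The 20 animals, crossbred from Large White and Landrace with a parity of 3.53 ± 1.12, were all labelled wild type and batch 1, and each gave 1 library of uterine tissue, 5 per group; which layers of the uterine wall a piece held is not stated. Control sows received no semen. FR1 sows received the sperm-rich fraction of the ejaculate, FR2 sows the rich and intermediate fractions, and FR3 sows the rich, intermediate and poor fractions, from 3 Pietrain boars by post-cervical insemination (2.53 ± 0.74 inseminations per animal). Whether an inseminated animal carried embryos is not given per library, so exposure to semen and the presence of embryos cannot be told apart in any comparison with control.

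Wnt ligands are secreted, lipid-modified glycoproteins that bind Frizzled receptors. With the coreceptors LRP5 and LRP6 they prevent the destruction of beta-catenin, which then acts with TCF and LEF factors in the nucleus. Cells restrain the signal by secreting ligand traps such as the SFRP proteins and by raising feedback genes such as AXIN2, RNF43 and ZNRF3. In the uterus WNT7A is known as a ligand of the luminal epithelium and is needed for gland formation in mice, WNT4 is known for its part in the stromal response to implantation, and WNT5A signals mostly without beta-catenin and orients tissue growth.

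Levels below are in CPM (a gene's counts per 1e6 counts of the library), scaled by the trimmed mean of M values (TMM), and they serve to compare one gene between libraries, not different genes. Depth ran from 33 to 62.9 in units of 1e6 counts, and libraries are named by group and column number. The uterine genes HOXA10, HOXA11, ESR1, PGR and EMX2 were above 0 in all 20 libraries, with summed levels of 325 to 773 CPM. Libraries FR1_1, FR1_4, FR2_3 and FR3_4 stood apart in earlier results of these data: 12 markers of uterine epithelium summed to 1650 to 2060 CPM in them, to 2770 to 6170 CPM in the other 11 inseminated libraries and to 4040 to 7320 CPM in the controls. Of those 12 markers 6 fell and 0 rose after insemination (edgeR adjusted p below 0.05), beside 8.2% of all genes tested that fell and 2.87% that rose. Control libraries also differed among themselves, with a smooth muscle marker sum of 1080 CPM in CONTROL_1 and of between 14700 and 32600 CPM elsewhere in that group. In bulk tissue, fewer cells of a type and less RNA per cell cannot be told apart.

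WNT4 was the only one of the 9 genes that changed by the main test, edgeR's quasi-likelihood test with Benjamini-Hochberg adjustment over all genes, at an adjusted p below 0.05. It rose after insemination. Control libraries held 0.0209, 0.256, 0.206, 0.65 and 0.394 CPM, from 1 to 31 counts each. FR1 libraries held 0.696, 1.31, 1.52, 0.505 and 1.23 CPM, FR2 libraries 2.71, 2.40, 1.03, 2.58 and 0.896 CPM, and FR3 libraries 1.75, 2.00, 1.73, 1.97 and 0.546 CPM. Thus 13 of 15 inseminated libraries lay above every control, while FR1_4 and FR3_5 lay below CONTROL_4 and above the other 4 controls. The mean was 0.305 ± 0.234 CPM (SD, n = 5) without and 1.53 ± 0.72 CPM (SD, n = 15) with insemination. On the log2 scale WNT4 rose by 2.27 ± 0.55 (± SE here and below, edgeR adjusted p = 0.0118). An exact rank-sum test over the 15504 ways to choose 5 of 20 libraries, added after the data were seen, gave p = 0.000516 (2-sided) and an adjusted p of 0.0402. WNT4 counts were low, between 18 and 125 in inseminated libraries, so each value carries counting error.

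By group, WNT4 was ordered control, FR1, FR3 and FR2, with means of 0.305 ± 0.234, 1.05 ± 0.433, 1.60 ± 0.603 and 1.92 ± 0.884 CPM (SD, n = 5 each). Neighbours in that order did not differ by edgeR, with adjusted p of 0.112 for FR1 against control, 0.754 for FR3 against FR1 and 0.919 for FR3 against FR2. FR2 and FR3 each rose against control, by log2 2.64 ± 0.62 and 2.38 ± 0.61 (edgeR adjusted p = 0.0196 and 0.0361), and FR1 was at 1.78 ± 0.60. Both of those calls were marginal. The FR2 call was lost without CONTROL_3, FR2_1 or FR2_4 (edgeR adjusted p of 0.055, 0.0563 and 0.0503), and the FR3 call without CONTROL_2, CONTROL_3, FR3_1, FR3_2 or FR3_3 (0.0535, 0.085, 0.0754, 0.0846 and 0.0551). Neither was called when only the 10 libraries compared were fitted (FR2 0.108, FR3 0.229). The comparison of all inseminated sows with control was called in each of the 20 runs that left out 1 library, at log2 1.97 to 2.74, and was at 2.83 with edgeR adjusted p = 0.0806 when CONTROL_2, CONTROL_3 and CONTROL_4 were all left out. WNT4 in FR1_1, FR1_4, FR2_3 and FR3_4, at 0.505 to 1.97 CPM, overlapped the other inseminated libraries, 0.546 to 2.71 CPM, with FR1_4 the lowest of the 15, and without those 4 the log2 change was 2.37 (edgeR adjusted p = 0.0192).

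**Figure D1:**
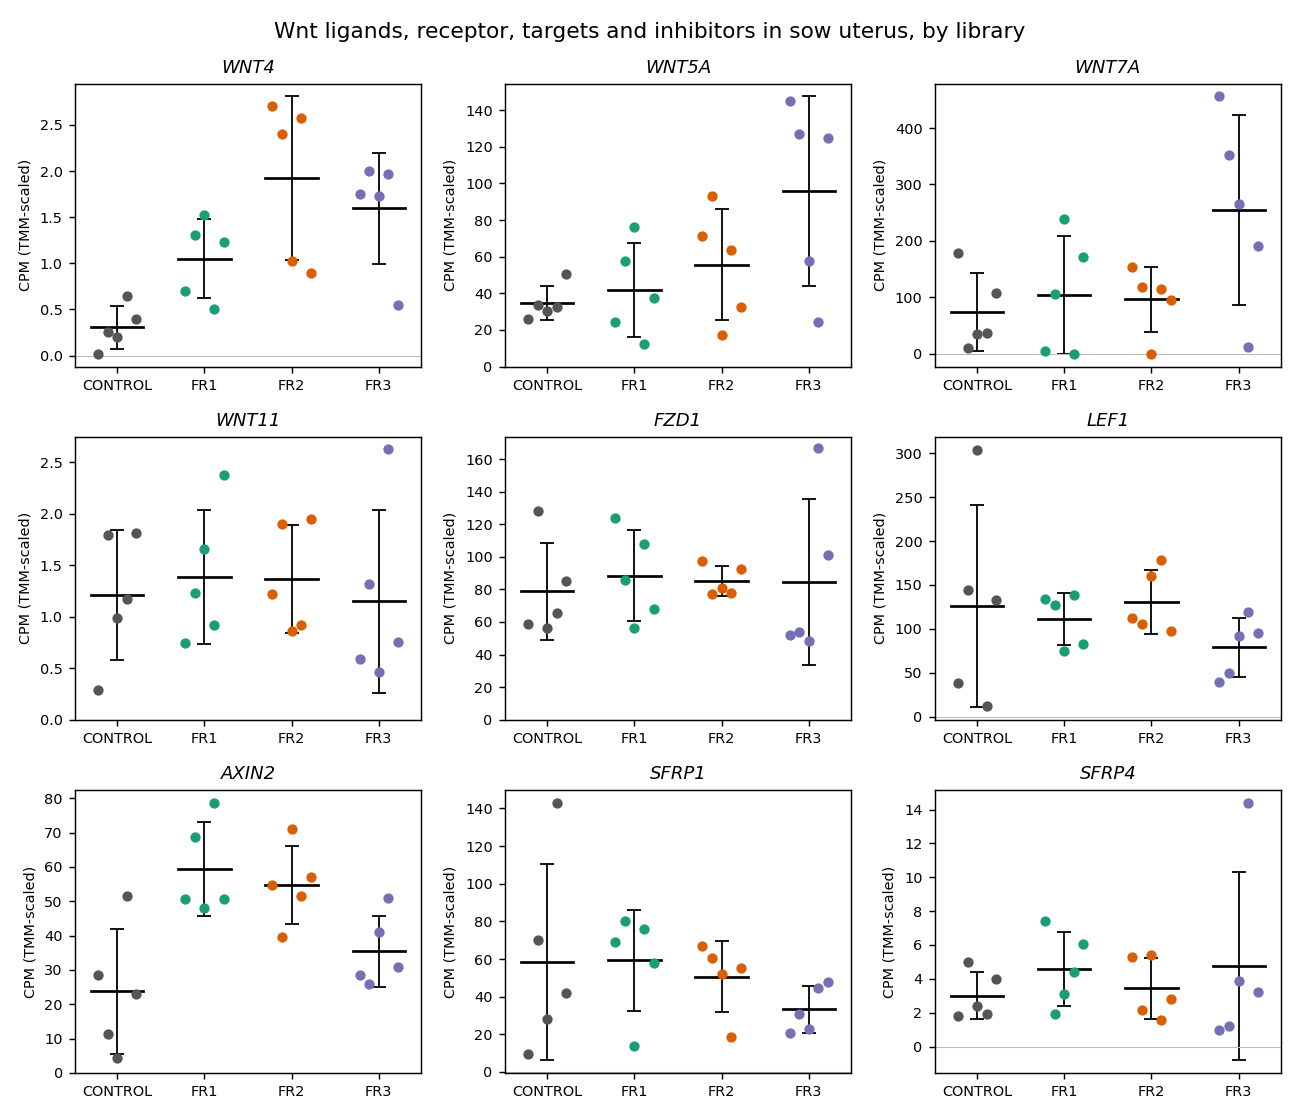
TMM-scaled CPM (vertical axes, 1 scale per gene, linear) of the 9 Wnt genes in control, FR1, FR2 and FR3 uteri. Each point is 1 library in column order, the bar is the mean and the whiskers are the SD of 5 libraries; WNT4 is above every control in 13 of 15 inseminated libraries, while WNT7A is at 0 in 1 FR1 and 1 FR2 library.

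In all inseminated against control 1 of the 9 genes was called, and 11.1% of all 17745 genes were (2.87% higher and 8.2% lower). The count was 0 of 9 in FR1 against control, where 2.6% of genes were called (0.609% higher and 1.99% lower) and 2 of the 9 had an unadjusted p below 0.05. It was 1 in FR2 against control (5.55% of genes called, 1.57% higher and 3.98% lower) and 1 in FR3 against control (4.27%, 1.43% higher and 2.85% lower). Between fractions none of the 9 was called by edgeR, where 0% of all genes were called in FR2 against FR1, 0.00564% in FR3 against FR2 and 0% in FR3 against FR1. Unadjusted p-values below 0.05 numbered 0, 0 and 1 of the 9 in those comparisons. A test of any difference among the 4 groups called none of the 9 and 4.07% of all genes, with 3 of the 9 at an unadjusted p below 0.05. DESeq2, which called 16.3% of genes in all inseminated against control, called WNT4 in the test of any difference (adjusted p = 0.00195). The median log2 change of the 9 genes after insemination was 0.49, and that of all genes tested was -0.05.

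**Figure D2:**
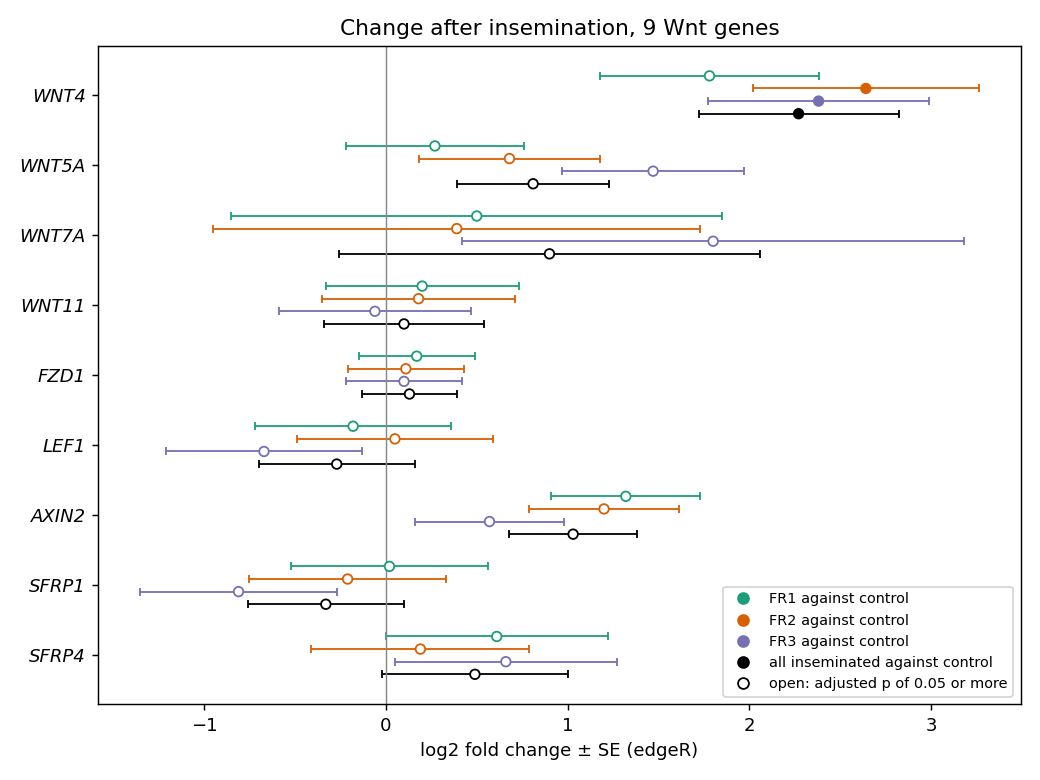
Log2 fold change with its standard error (horizontal axis, edgeR) of the 9 genes in FR1, FR2, FR3 and all inseminated sows, each against the same 5 control libraries. Filled points have an adjusted p below 0.05, which only WNT4 reached, at 2.64 in FR2, 2.38 in FR3 and 2.27 in all inseminated sows.

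WNT7A, the ligand of the luminal epithelium, showed the widest range of the 9 genes among inseminated sows and had no count in 2 libraries. FR1 libraries held 4.58, 106, 238, 0 and 172 CPM, FR2 libraries 154, 118, 0, 115 and 94.8 CPM, and FR3 libraries 456, 352, 265, 11.2 and 191 CPM. The values at 0 (FR1_4 and FR2_3) and the values of 4.58 and 11.2 CPM (FR1_1 and FR3_4) were those of the 4 libraries with the lowest epithelium marker sums, and the other 11 inseminated libraries held 94.8 to 456 CPM. A count of 0 allows a level of up to 0.0659 CPM in FR1_4 and 0.0574 CPM in FR2_3 (3 counts, counting error only). Controls held 178, 9.22, 35.6, 36.9 and 108 CPM, so that CONTROL_2 lay among the low values, CONTROL_1 and CONTROL_5 among the high ones and the other two between, although all 5 controls had epithelium marker sums above those of the 4 libraries.

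Epithelium markers in the 4 libraries with little or no WNT7A were above 0 but lower in part. For 4 of the 12 markers (KRT8, KRT19, CDH1 and CLDN4) all 4 libraries lay below the other 11 inseminated ones, and for the other 8 the ranges overlapped. KRT8, a keratin of simple epithelia, was at 447 to 529 CPM in them and at 847 to 2330 CPM in the other 11 inseminated libraries. CDH1, the adhesion protein E-cadherin, was at 149 to 257 CPM against 336 to 1100 CPM, KRT19 at 447 to 515 against 818 to 1910 CPM, and CLDN4, a tight junction protein, at 31.8 to 91.2 against 146 to 327 CPM. ESRP1, an epithelial splicing regulator, was at 53.6 to 76.6 CPM against 55.6 to 79.7 CPM. FOXA2, a transcription factor of the uterine glands, was at 80.8 to 102 CPM against 16.1 to 85.4 CPM in the other 11 and 6.83 to 93.9 CPM in controls. None of the 12 was at 0 in any library. Smooth muscle markers summed to 14200 to 28400 CPM in the 4 libraries and to 3860 to 17800 CPM in the other 11, and stromal fibroblast markers to 10700 to 18100 and 4990 to 14600 CPM. The part of tissue makeup in the WNT7A values was not tested.

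With this spread no group comparison of WNT7A was called. Means were 73.4 ± 68.8 CPM in control, 96.2 ± 57.9 in FR2, 104 ± 104 in FR1 and 255 ± 169 in FR3 (SD, n = 5 each), and no pair of neighbours in that order differed beyond its spread. The log2 change after insemination was 0.90 ± 1.16 (edgeR adjusted p = 0.676). By limma-voom it was -0.61 ± 1.82, and without the 4 libraries it was 1.33 (edgeR adjusted p = 0.0922). These 4 held the lowest WNT7A values of the inseminated libraries, so leaving them out had to raise the change. In FR3 against control, 4 of 5 libraries lay above the highest control and FR3_4 lay below 4 of the 5 controls (log2 1.80 ± 1.38, edgeR adjusted p = 0.483).

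**Figure D3:**
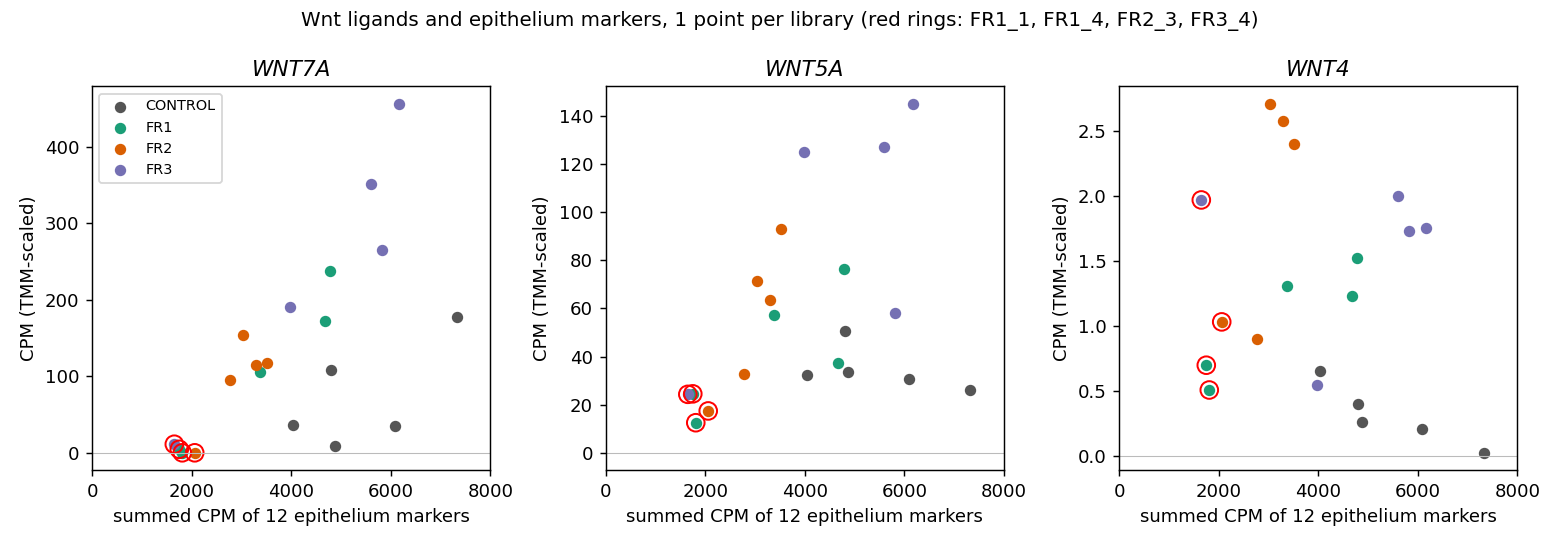
WNT7A, WNT5A and WNT4 in TMM-scaled CPM (vertical axes) against the summed CPM of 12 epithelium markers (horizontal axis), 1 point per library, coloured by group, with red rings around FR1_1, FR1_4, FR2_3 and FR3_4. The ringed libraries hold 0 to 11.2 CPM of WNT7A and 12.5 to 24.5 CPM of WNT5A, below the other 11 inseminated libraries, and 0.505 to 1.97 CPM of WNT4, overlapping the 0.546 to 2.71 CPM of the other 11.

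WNT5A, which acts mainly through beta-catenin-independent routes, was low in the same 4 libraries. Controls lay close together at 26.0, 33.6, 30.5, 32.5 and 50.6 CPM. FR1 libraries held 24.5, 57.4, 76.4, 12.5 and 37.4 CPM, FR2 libraries 71.3, 93.0, 17.4, 63.5 and 32.7 CPM, and FR3 libraries 145, 127, 57.9, 24.3 and 125 CPM. In all, 9 inseminated libraries were above every control and 4 (FR1_1, FR1_4, FR2_3 and FR3_4, at 12.5 to 24.5 CPM) were below every control. Group means rose in number from 34.6 ± 9.38 CPM in control through 41.6 ± 25.6 in FR1 and 55.6 ± 30.4 in FR2 to 95.8 ± 52.0 in FR3 (SD, n = 5 each), but no neighbours differed beyond their spread.

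No WNT5A comparison passed the main test. The log2 change was 0.81 ± 0.42 in all inseminated sows (edgeR adjusted p = 0.243), 0.27 ± 0.49 in FR1, 0.68 ± 0.50 in FR2 and 1.47 ± 0.50 in FR3 (edgeR adjusted p = 0.099 in FR3), and FR3 stood 1.20 ± 0.50 above FR1 (adjusted p = 0.593). DESeq2 called WNT5A in FR3 against control, at 1.44 (adjusted p = 0.0378). In all inseminated sows DESeq2 called 16.3% of genes and edgeR 11.1%. Without FR3_4 alone, the lowest FR3 library for WNT5A, the edgeR FR3 value was 1.68 and was called (edgeR adjusted p = 0.0423). Without FR1_1, FR1_4, FR2_3 and FR3_4 WNT5A was called in all inseminated sows, at 1.09 (edgeR adjusted p = 0.0191, where 10.8% of genes were called). These 4 held the lowest WNT5A values of all libraries, so leaving them out had to raise the change. The calls without these libraries therefore add no support for a rise. With the epithelium marker sum as a covariate WNT5A was called too, at 1.37 (edgeR adjusted p = 0.0129), in a fit that called 17.4% of genes. That covariate itself differs between inseminated and control sows, so the fit holds level a quantity that moved with the groups.

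WNT11, a ligand of cell movement, was low and was not called in any comparison by edgeR. Its group means ran from 1.15 ± 0.889 CPM in FR3 to 1.39 ± 0.653 CPM in FR1 (SD, n = 5 each), with 14 to 163 counts per library, and its log2 change was 0.10 ± 0.44 (edgeR adjusted p = 0.912). FZD1, the Frizzled receptor, had group means between 78.8 ± 29.9 CPM in control and 88.4 ± 28.1 CPM in FR1, a log2 change of 0.13 ± 0.26 (edgeR adjusted p = 0.814). The highest WNT11 and FZD1 values of all 20 libraries, 2.63 and 167 CPM, were both in FR3_4. FZD1 was at 80.7 to 167 CPM in the 4 libraries with the lowest epithelium marker sums and at 48.2 to 101 CPM in the other 11 inseminated ones.

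AXIN2, a scaffold of the beta-catenin destruction complex that is itself raised by Wnt signalling, was higher in number in inseminated sows and missed the threshold. Controls held 28.5, 11.4, 4.47, 51.6 and 23.1 CPM. FR1 libraries held 50.7, 68.7, 48.1, 78.7 and 50.7 CPM, FR2 libraries 54.6, 39.7, 71.0, 51.5 and 57.0 CPM, and FR3 libraries 28.6, 25.9, 40.9, 51.0 and 30.8 CPM. Of the 5 controls 3 were below all 15 inseminated libraries, whereas CONTROL_4 was above 10 of them. The log2 change was 1.03 ± 0.35 (edgeR adjusted p = 0.0664), with 1.32 ± 0.41 in FR1, 1.20 ± 0.41 in FR2 and 0.57 ± 0.41 in FR3 (adjusted p = 0.0854, 0.09 and 0.444).

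The side of the threshold on which AXIN2 fell depended on 1 library and on the tool. Without CONTROL_4 it was called at 1.55 (edgeR adjusted p = 0.00903, 8.77% of genes called). CONTROL_4 held the highest AXIN2 value of the controls, so leaving it out had to raise the change. DESeq2 called AXIN2 at 1.00 (adjusted p = 0.0267, 16.3% of genes called) and limma-voom at 1.40 (adjusted p = 0.0239, 7.37% of genes called). By the exact rank-sum test, which called 1.88% of genes and WNT4 alone of the 9, AXIN2 had p = 0.0193 and an adjusted p of 0.177. In group order, control at 23.8 ± 18.2 CPM was followed by FR3 at 35.4 ± 10.4, FR2 at 54.8 ± 11.2 and FR1 at 59.4 ± 13.6 CPM (SD, n = 5 each), and FR3 against FR1 was at log2 -0.75 ± 0.41 (edgeR adjusted p = 0.61).

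LEF1, a nuclear partner of beta-catenin, differed more among controls than among inseminated sows and was not called in any comparison by edgeR. Controls held 38.2, 144, 304, 11.7 and 133 CPM, a 26.1-fold range, and the 15 inseminated libraries ran from 39.7 to 178 CPM with a median of 105 CPM. The lowest and the highest LEF1 values of the 20 libraries were thus both controls, CONTROL_4 and CONTROL_3. AXIN2 had the opposite extremes in these 2 libraries, at 51.6 CPM in CONTROL_4 and 4.47 CPM in CONTROL_3, the highest and lowest of the controls. LEF1 changed by log2 -0.27 ± 0.43 after insemination (edgeR adjusted p = 0.747), and by 0.37 without CONTROL_3. Group means were 79.3 ± 33.5 CPM in FR3, 112 ± 30.0 in FR1, 126 ± 115 in control and 130 ± 36.3 in FR2 (SD, n = 5 each).

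**Figure D4:**
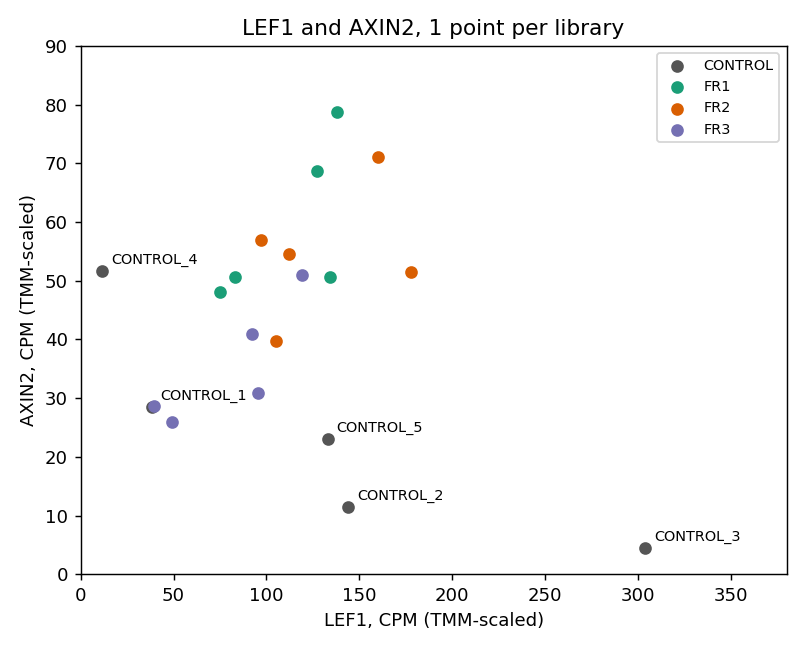
AXIN2 (vertical axis) against LEF1 (horizontal axis) in TMM-scaled CPM, 1 point per library coloured by group, with the 5 controls named. The controls run from CONTROL_4 (LEF1 11.7, AXIN2 51.6 CPM) to CONTROL_3 (LEF1 304, AXIN2 4.47 CPM), and the 15 inseminated libraries lie between 39.7 and 178 CPM of LEF1.

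SFRP1 and SFRP4, decoy proteins that bind Wnt ligands outside the cell, were not called. SFRP1 was at 9.76, 70.1, 27.9, 143 and 41.7 CPM in controls, with the highest and the lowest value of the 20 libraries again among them (CONTROL_4 and CONTROL_1). Inseminated libraries ran from 13.9 to 80.4 CPM with a median of 51.9 CPM. Group means were 33.3 ± 12.5 CPM in FR3, 50.6 ± 18.8 in FR2, 58.5 ± 52.2 in control and 59.5 ± 26.8 in FR1 (SD, n = 5 each). The log2 change was -0.33 ± 0.43 (edgeR adjusted p = 0.679), and 0.33 without CONTROL_4. With the stromal fibroblast marker sum as a covariate SFRP1 was at -1.33 (edgeR adjusted p = 0.0398, in a fit that called 7.38% of genes). Those 9 markers were also not level between the groups: their summed level was 1880 to 9010 CPM in controls and 4990 to 18100 CPM in inseminated libraries. Of the 9 markers 2 rose and 0 fell by edgeR, beside 2.87% and 8.2% of all genes.

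SFRP4 was at 1.80 to 4.98 CPM in controls and at 0.98 to 14.4 CPM in inseminated libraries, a log2 change of 0.49 ± 0.51 (edgeR adjusted p = 0.593). Its highest value was that of FR3_4, whose stromal marker sum of 18100 CPM was also the highest of the 20 libraries. The other FR3 libraries held 0.98 to 3.90 CPM of SFRP4. The 4 libraries with the lowest epithelium marker sums held 4.43 to 14.4 CPM of SFRP4 and the other 11 inseminated libraries 0.98 to 6.04 CPM. SFRP4 thus lay toward the high end in the libraries in which WNT7A and WNT5A lay at the low end. FZD1 did so in FR1_1, FR1_4 and FR3_4, while FR2_3, at 80.7 CPM, was at the FZD1 median of the inseminated libraries.

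Other genes of the pathway, 79 in 6 lists that hold none of the 9, gave 70 tested genes. After insemination 8 rose and 3 fell, 15.7% of the 70 against 11.1% of all genes, with a median log2 change of 0.16 against -0.05. The lists were chosen with earlier results of these data known, and the difference in shares was not tested. Without CONTROL_2, CONTROL_3 and CONTROL_4, 1 of the 70 was called, LGR5. Only CONTROL_1 and CONTROL_5 remained as controls, at 37.5 and 0.116 CPM of LGR5, so that call rested on CONTROL_1. The share of all genes called in that fit is not given here. Fewer calls therefore cannot be told from the loss of controls. RNF43, a ubiquitin ligase that removes Frizzled receptors from the cell surface, was at 22.5, 16.2, 7.82, 20.2 and 18.0 CPM in controls and at 24.3 to 37.4 CPM (median 26.4) in the 15 inseminated libraries. Control and inseminated libraries did not overlap for RNF43, which was so for 0.468% of all genes and for none of the 9. Its log2 change was 0.73 ± 0.17 (edgeR adjusted p = 0.0109), called in each of 20 runs that left out 1 library and by the exact rank-sum test (adjusted p = 0.0269). ZNRF3, its close relative, rose by 0.51 ± 0.15 (edgeR adjusted p = 0.0367), and was named after its value was seen. That call was lost without CONTROL_2, CONTROL_3, CONTROL_5, FR1_2, FR2_1, FR2_2 or FR2_4, at edgeR adjusted p of 0.0517 to 0.115 and log2 values of at least 0.44.

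APCDD1, a membrane inhibitor of Wnt signalling and one of its targets, was at 57.2 to 73.2 CPM in controls, and 14 of 15 inseminated libraries were above all of them, up to 212 CPM. It rose by 1.04 ± 0.23 (edgeR adjusted p = 0.00689). SP5, a transcription factor induced by beta-catenin, rose from 2.89 ± 2.78 CPM (SD, n = 5) to 12.1 ± 7.03 CPM (SD, n = 15), at log2 1.97 ± 0.56 (edgeR adjusted p = 0.0284). All FR1 and FR2 libraries and 2 of 5 FR3 libraries lay above every control for SP5. Its call was lost without CONTROL_3 or CONTROL_4 (edgeR adjusted p of 0.0866 and 0.0693, log2 1.92 and 1.74). Of the 8 listed targets 2 rose and 1 fell (37.5%, beside 11.1% of all genes), with a median log2 change of 0.06. The fall was that of CD44, a hyaluronan receptor also made by leukocytes, at -1.17 ± 0.34 (edgeR adjusted p = 0.0326). CONTROL_3 held 190 CPM of CD44, the other controls between 21.5 and 85.0 CPM, and the log2 change was -0.58 without CONTROL_3 (edgeR adjusted p = 0.326). Leaving out this highest control had to shrink the fall. Leukocyte markers summed to 204 CPM in CONTROL_3, the highest of the 20. FR3_3, with the next highest leukocyte sum of 172 CPM, held the lowest CD44 of the 20, at 15.9 CPM. The part of leukocytes was not tested. The CD44 call was also lost without CONTROL_2, CONTROL_4, FR2_4, FR3_1 or FR3_2, at edgeR adjusted p of 0.0504 to 0.071.

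Among 20 receptors and coreceptors, which include RNF43 and ZNRF3, 3 rose and 1 fell, with a median log2 change of 0.21. These calls are 20% of the list, beside 11.1% of all genes. LRP5 rose by 0.67 ± 0.20 (edgeR adjusted p = 0.0326), a call lost without CONTROL_2, CONTROL_3 or CONTROL_4 (0.0789, 0.0917 and 0.104). LGR5, a receptor for R-spondins that marks stem cells in several epithelia, fell by 4.87 on the log2 scale, with an SE of 0.96 (edgeR adjusted p = 0.00285). Its level was 37.5, 5.75, 0.825, 51.0 and 0.116 CPM in controls and 0 to 4.44 CPM in inseminated libraries, so 3 controls lay above all inseminated libraries and 2 lay among them. The LGR5 call held in each of the 20 runs that left out 1 library, but was lost by limma-voom (-3.95, adjusted p = 0.0947) and by the exact rank-sum test (adjusted p = 0.271).

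Of 9 tested secreted inhibitors 2 rose and 0 fell (22.2%, beside 11.1% of all genes), with a median log2 change of 0.34. SOSTDC1, an inhibitor of Wnt and BMP signals, rose from 1.64 ± 1.23 CPM (SD, n = 5) to 11.3 ± 8.89 CPM (SD, n = 15), at log2 2.75 ± 0.71 (edgeR adjusted p = 0.0168). The 4 libraries with the lowest epithelium marker sums held 2.85 to 3.21 CPM of SOSTDC1, within the control range of 0.229 to 3.42 CPM. The other 11 inseminated libraries held 2.95 to 29.7 CPM. Without the 4 libraries with the lowest epithelium marker sums the log2 change was 3.05 (edgeR adjusted p = 0.00857). Those 4 lay at the low end of the inseminated libraries for SOSTDC1, so leaving them out had to raise the change. By limma-voom SOSTDC1 was not called (2.75, adjusted p = 0.0853). DKK3, of the Dickkopf family, rose by 1.37 ± 0.42 (edgeR adjusted p = 0.0417). That call was lost without CONTROL_1, CONTROL_3, CONTROL_4, CONTROL_5, FR1_2, FR1_3, FR2_1, FR2_2, FR2_4 or FR2_5, at edgeR adjusted p of 0.0526 to 0.0974. WIF1, a secreted ligand trap, was not called at 1.73 ± 0.93 (edgeR adjusted p = 0.254). By limma-voom it was called at 4.16 (adjusted p = 0.0244). It was at 10.2, 2.17, 0.871 and 0.231 CPM in 4 controls, while CONTROL_5 held 96.3 CPM and inseminated libraries between 15.7 and 162 CPM. Without CONTROL_5 it was called at 4.47 (edgeR adjusted p = 0.00259), but leaving out the highest control had to raise the change. DKK1 was at -1.21 ± 0.67 (adjusted p = 0.273), and was called only without CONTROL_4 among those 20 runs (-1.52, edgeR adjusted p = 0.0487). CONTROL_4 held the lowest DKK1 value of the controls, so leaving it out had to deepen the fall.

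**Figure D5:**
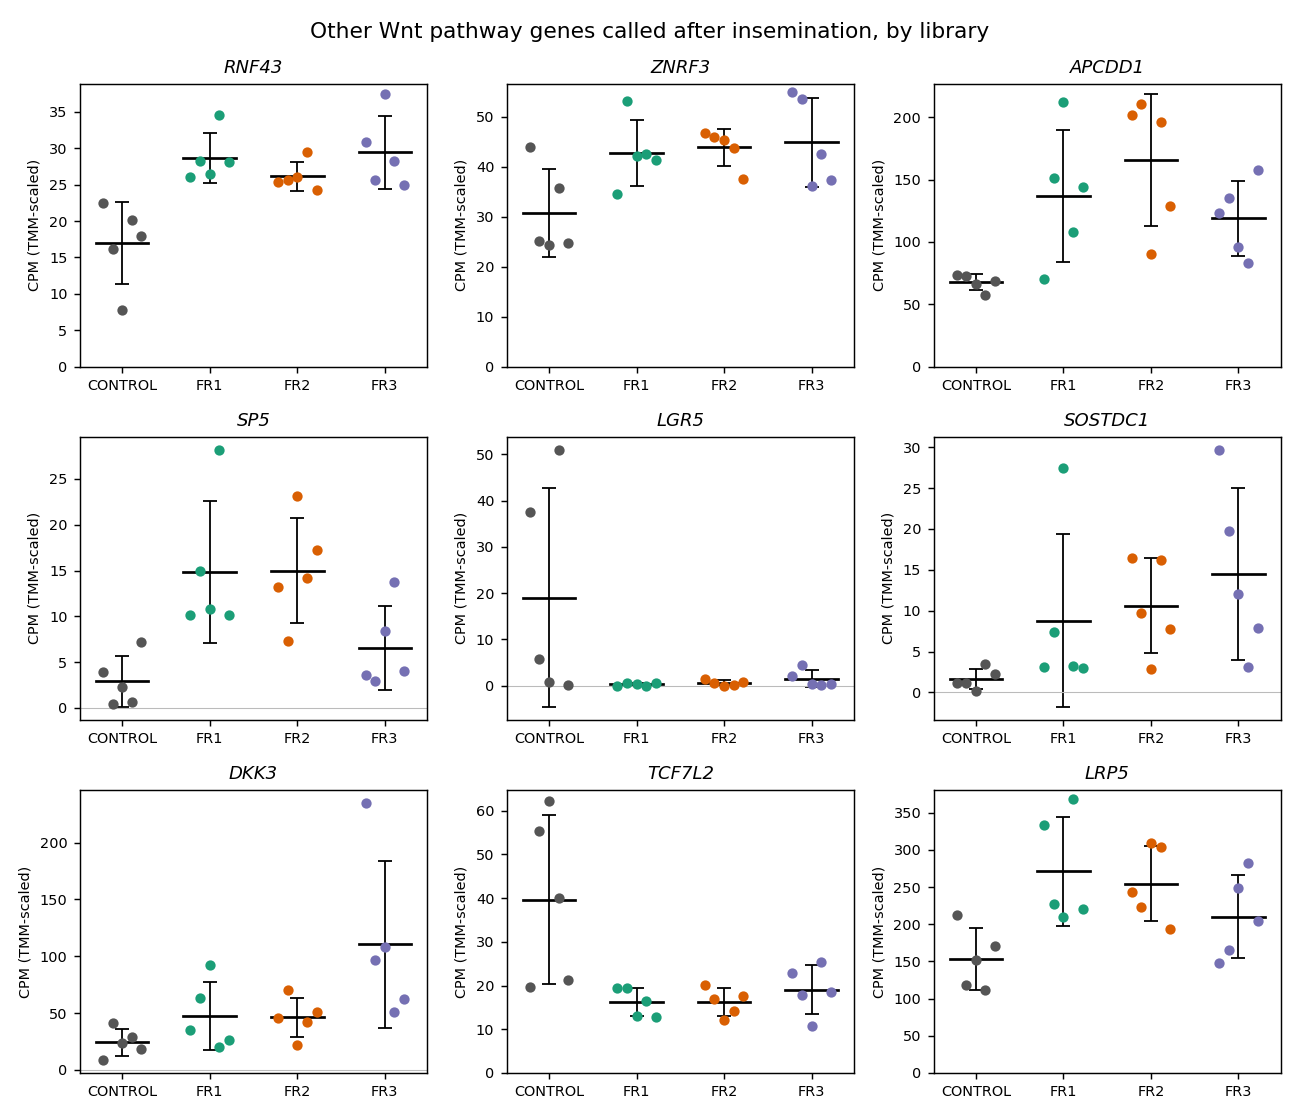
TMM-scaled CPM (vertical axes, 1 linear scale per gene) of 9 of the 11 other Wnt pathway genes that were called in all inseminated sows against control. BTRC, which rose, and CD44, which fell, are not shown. Points are libraries, bars means and whiskers the SD of 5 libraries; RNF43 is above every control in all 15 inseminated libraries, and LGR5 is high in 3 controls.

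Of 18 signal transduction genes 1 rose and 1 fell, with a median log2 change of -0.04. The share called was 11.1%, the same as that of all genes. TCF7L2, a nuclear partner of beta-catenin like LEF1, fell by 1.21 on the log2 scale, with an SE of 0.23 (edgeR adjusted p = 0.00201), called in each of the 20 runs without 1 library. It was at 19.7, 55.3, 62.2, 40.0 and 21.2 CPM in controls and at 10.7 to 25.3 CPM in inseminated libraries. The 3 high controls were CONTROL_2, CONTROL_3 and CONTROL_4, without which the log2 change was -0.24 (edgeR adjusted p = 0.675). Leaving out the 3 highest controls had to shrink the fall, and only CONTROL_1 and CONTROL_5 remained as controls. BTRC, a subunit of the ubiquitin ligase that targets beta-catenin, rose by 0.64 ± 0.18 (edgeR adjusted p = 0.0301), lost without CONTROL_3 or CONTROL_4 (0.0803 and 0.0637). GSK3B and CSNK1A1, kinases of the destruction complex, were at 0.47 ± 0.16 and -0.47 ± 0.17 (edgeR adjusted p = 0.0578 and 0.0904). DESeq2, which called 16.3% of genes, called both (0.45 and -0.50, adjusted p = 0.0235 and 0.0382). By edgeR GSK3B was called without CONTROL_1, CONTROL_5, FR1_4, FR3_3 or FR3_4 (0.62, 0.48, 0.50, 0.50 and 0.48) and CSNK1A1 without CONTROL_4 or CONTROL_5 (-0.59 and -0.58). CONTROL_1 was the highest control for GSK3B and CONTROL_4 the lowest for CSNK1A1, so leaving each out had to enlarge that change.

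The remaining ligands and agonists gave no call by edgeR, at 0 of 10 and 0 of 5 tested, beside 11.1% of all genes. WNT2 and WNT9A were at 1.01 ± 0.38 and -0.23 ± 0.21 (edgeR adjusted p = 0.0974 and 0.546), and WNT2 was called by limma-voom (1.30, adjusted p = 0.0476) and without CONTROL_4 (1.55, edgeR adjusted p = 0.0157). RSPO1, a secreted agonist that stabilises Frizzled receptors, was at -1.12 ± 0.39 (edgeR adjusted p = 0.0719), with 4 of 5 controls above every inseminated library. DESeq2 called RSPO1 at -1.14 (adjusted p = 0.0433, 16.3% of genes called), and edgeR called it without CONTROL_5 or FR3_4 (-1.32 and -1.26, adjusted p = 0.0353 and 0.037). NDP, another Frizzled ligand, was at -1.02 ± 0.42 (adjusted p = 0.13), and at -1.33 without CONTROL_4 (edgeR adjusted p = 0.0159). CONTROL_4 held the highest WNT2 and the lowest NDP value of the controls, and CONTROL_5 the lowest RSPO1 value. Leaving out these controls therefore had to enlarge the changes of those genes. In single groups against control, 3 of the 70 genes were called in FR1 (APCDD1 higher, LGR5 and TCF7L2 lower), 4 in FR2 (APCDD1, SP5 and SOSTDC1 higher, TCF7L2 lower) and 5 in FR3 (RNF43, SOSTDC1, DKK3 and BTRC higher, TCF7L2 lower). These are 4.29%, 5.71% and 7.14% of the 70, beside 2.6%, 5.55% and 4.27% of all genes, so the FR2 share was about that of all genes. Most of these calls depended on single libraries. Of the 20 runs that left out 1 library, LGR5 in FR1 was called in 4, APCDD1 in FR1 in 8 and TCF7L2 in FR1 in 14. In FR2 SOSTDC1 was called in 6, SP5 in 14, TCF7L2 in 17 and APCDD1 in all 20. In FR3 TCF7L2 was called in 3, BTRC in 6, RNF43 in 13, SOSTDC1 in 16 and DKK3 in 17. These comparisons share the same 5 control libraries. Between fractions 0 of the 70 genes were called.

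For each of the 9 genes the tested genes with the most similar order of libraries were taken by Spearman's rho of log2(CPM + 1) over the 20 libraries, as a description without a test, since they were chosen as the highest of all genes and the libraries share depth and tissue makeup. WNT7A was most like SULT2B1 and IFIT2 (rho 0.97 and 0.96, and 0.94 and 0.92 over the 16 libraries left without FR1_1, FR1_4, FR2_3 and FR3_4). WNT5A was most like C10H9orf72 and SLC6A15 (0.95 and 0.94, and 0.92 and 0.91 over 16), and WNT4 most like RNF170 and KDM5B (0.89 and 0.86, and 0.90 and 0.86 over 16). FZD1 ran with REEP1 and FAM13C (0.96 and 0.94) and SFRP1 with RYR3 and ADD2 (0.94 and 0.92). AXIN2 was most like DOCK11 and LRP4 (0.90 and 0.89), LEF1 like PTGER2 and TMEM56 (0.90 and 0.88) and SFRP4 like LHFPL1 and PARD6A (0.88 and 0.85). WNT11, with few counts, reached 0.70 with TMEM252 and with HNMT. None of these neighbours was another of the 9 genes.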

How the data were processed

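Messenger RNA from uterine tissue of 20 sows was sequenced, 1 library per sow. Per gene, the authors deposited estimated counts, also called expected counts, made with CASAVA, STAR 2.7.9a and Salmon 1.10.1 per the submitters' processing notes; the genome build, annotation and strand setting are not given in the sources used here. Column names carry a group and a number, never the sow. Of 30369 rows 24 name no gene (at most 0.0133% of a library) and were left out. Counts were rounded and tested in R 4.3.3 with edgeR 4.0.16 (TMM, filterByExpr, 2-sided quasi-likelihood test, 1 fit over 20 libraries, 16 residual degrees of freedom, Benjamini-Hochberg over 17745 genes, threshold 0.05). SE is the log2 fold change over the square root of F. Alternatives used DESeq2 1.42.0, limma-voom (limma 3.58.1), relative log expression factors, other filters, marker sums as covariates and left-out libraries; the exact rank-sum test was added after the data were seen. Scripts were tested on simulated data. The 9 genes and all lists were chosen with earlier results of these data known. All 9 are named; in each other list up to 3 called genes with the smallest p are named, and the next 2 where fewer were called.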

Additional observations from a re-analysis of the deposited data

Results flagged for a closer look

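Each of the 9 genes was checked in each group of 5 for a library far from the other 4, a check that chance alone meets in about 1 of 20 groups, and 2 of 36 groups met it. SFRP4 in FR3_4 was at 14.4 CPM, and the nearest other FR3 library was at 3.90 CPM. The smooth muscle, stromal fibroblast and endothelium marker sums of FR3_4 were the highest in FR3, at 25900, 18100 and 436 CPM, and its epithelium marker sum was the lowest, at 1650 CPM; their part was not tested. WNT4 in FR3_5 was at 0.546 CPM from 18 counts, and the nearest other FR3 library was at 1.73 CPM.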

How the results depend on the processing

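The number of the 9 genes called in all inseminated sows against control, 1 in the main test (WNT4), was 2 with DESeq2 or limma-voom (AXIN2 added), with the epithelium sum as covariate or without FR1_1, FR1_4, FR2_3 and FR3_4 (WNT5A added) and with the stromal sum (SFRP1 added), 0 without CONTROL_2, CONTROL_3 and CONTROL_4, and 1 to 2 without single libraries. For FR1, 0 in the main test, it was 2 with DESeq2 and 0 to 1 without single libraries. For FR2, 1 in the main test, it was 2 with DESeq2, limma-voom or the epithelium sum, 0 with the stromal sum, with only the libraries compared and without the 3 controls, and 0 to 2 without single libraries. For FR3, 1 in the main test, it was 2 with DESeq2 (WNT5A added) and with the epithelium or stromal sum, 0 with limma-voom, with only the libraries compared and without the 3 controls, and 0 to 2 without single libraries. For any difference, 0 in the main test, it was 1 with DESeq2, the epithelium sum or without the 4 libraries, and 0 to 2 without single libraries. In all inseminated sows 11.1% of all genes were called in the main test, 16.3% with DESeq2 and 7.37% with limma-voom. The share was 17.4% with the epithelium sum, 7.38% with the stromal sum and 10.8% without the 4 libraries. For the other comparisons such shares are given for the main test only. Changes in their counts cannot be told from fits that called more or fewer genes throughout. The count of other Wnt genes, 11, was 17 with the epithelium sum, 1 without the 3 controls, 2 by the exact rank-sum test and 6 to 20 without single libraries (6 without CONTROL_3, 20 without CONTROL_5).

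Values of uncalled genes changed sign in all inseminated sows against control as follows. With limma-voom WNT7A was at -0.61, LEF1 at 0.38, SFRP1 at 0.04 and DKK1 at 1.19. Without the 3 controls WNT7A was at -0.06, LEF1 at 0.31, SFRP1 at 0.87, DKK1 at 0.58 and the called CD44 at 0.60. With the epithelium sum WNT11 was at -0.10, FZD1 at -0.44 and SFRP4 at -0.39, with the stromal sum at -0.56, -0.59 and -0.38, and without the 4 libraries FZD1 was at -0.14 and SFRP4 at -0.05. Without single libraries WNT11 ran from -0.14 to 0.29, FZD1 from -0.01 to 0.37, LEF1 from -0.55 to 0.37, SFRP1 from -0.60 to 0.33, and WNT5A in FR1 against control from -0.07 to 0.50. The causes were not tested. Of the 12 calls of other Wnt genes in single groups, APCDD1 in FR2 was called in each run without 1 library, and the others in 3 (TCF7L2 in FR3) to 17 of 20. No paired analysis was possible because the groups share no animal or number in the labels. For all inseminated sows, a fit with only the libraries compared is the main fit. Low counts limit WNT4 and WNT11.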
